A study of Mus musculus with 15 samples.

Results

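Genes of the unfolded protein response and of the ATF4 stress response were followed in mouse liver: Atf4, Atf5, Ddit3, Trib3 and Asns on the ATF4 side, and Hspa5, Creld2, Dnajb9, Herpud1 and Xbp1 on the side of the endoplasmic reticulum (ER). The 10 members were taken by symbol from a table of 54281 genes, for their known roles and with earlier results of these data known. Of the table, 11568 genes were expressed highly enough to be tested, and 9 of the 10 members were among them. Asns was not, because only 1 library exceeded the minimum, and it is described by its levels.

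All 15 animals were male C57BL6J mice, 9.5 months old, with 1 whole-liver RNA library each. The chow saline group (n = 3) received the vehicle of diethylnitrosamine (DEN) at 2 weeks of age, stayed on chow and was later injected with saline. The chow MCOPPB group (n = 5) was kept in the same way and received MCOPPB, which acts on the nociceptin/orphanin FQ receptor and which the series title calls senolytic, at 5 mg/kg intraperitoneally. Each of its 3 cycles had 5 days of injection and 2 days of washout, 21 days in all. The DEN/HFD saline group (n = 4) received the liver carcinogen DEN at 25 mg/kg at 2 weeks, chow until week 6 and then, for 32 weeks, a high fat diet (HFD) with 60% of its energy from lard, followed by saline. The DEN/HFD MCOPPB group (n = 3) had the same carcinogen and diet followed by MCOPPB. No group had DEN or HFD alone, so their effects cannot be told apart.

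When proteins fail to fold in the ER, the sensors PERK, IRE1 and ATF6 are activated. ATF6 and the spliced form of XBP1 raise chaperones such as BiP, the product of Hspa5, and the machinery that removes misfolded proteins. PERK and related kinases phosphorylate the initiation factor eIF2alpha, which slows translation in general, while the transcription factors ATF4 and ATF5 are translated more. They act on genes of amino acid supply, tRNA charging and cell death. Hepatocytes secrete large amounts of plasma protein, and both pathways are known to respond to fat overload and to amino acid shortage in the liver. The gene-level values used here show neither the splicing of Xbp1 nor the translation of Atf4 and Atf5.

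The promoters of 3 ER members are shown because they hold known stress elements, and because Hspa5 and Creld2 correlated between animals while Herpud1 passed the correlation test with neither. All 10 members had an entry in RefSeq (GRCm38.p6), Atf5 with a pair of start sites. Each line gives the last 130 bases before the annotated start on the plus strand, with matched elements in capitals, for Hspa5 at chr2:34771960-34772089, Creld2 at chr15:88819516-88819645 and Herpud1 at chr8:94386299-94386428. The GENCODE annotation, used for gene positions elsewhere in the text, begins Hspa5 further upstream, within the printed stretch.
Hspa5: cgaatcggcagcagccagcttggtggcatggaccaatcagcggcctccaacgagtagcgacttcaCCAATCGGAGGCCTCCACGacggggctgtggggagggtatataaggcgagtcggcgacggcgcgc
Creld2: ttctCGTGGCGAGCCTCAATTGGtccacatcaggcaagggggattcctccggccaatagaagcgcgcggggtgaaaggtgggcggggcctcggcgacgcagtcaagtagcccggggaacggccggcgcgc
Herpud1: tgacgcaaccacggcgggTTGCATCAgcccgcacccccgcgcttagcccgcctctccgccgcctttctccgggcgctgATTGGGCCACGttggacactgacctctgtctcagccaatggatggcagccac

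Short elements were searched on both strands of the 250 bases before each start. The ER stress element ERSE, CCAAT and CCACG with 9 bases of any kind between them, was found in Hspa5, 65 to 47 bases before the start, and on the other strand in Creld2, 126 to 108 bases before it. It occurs in 0.113% of 32851 such windows. The related element ERSE-II, ATTGG and CCACG with 1 base of any kind between them, was found in Herpud1, 52 to 42 bases before the start, and occurs in 0.0304% of windows. The C/EBP-ATF element CARE, TGATGNAA, was found in Asns and, on the other strand 112 to 105 bases before the start, in Herpud1, and occurs in 3.45% of windows. The UPRE core TGACGTGG and the cyclic AMP element TGACGTCA matched no member (0.563% and 1.55% of windows). The matches in the printed lines do not overlap each other, although the end of ERSE, CCACG, is also part of ERSE-II and, reversed, of the UPRE core. No searched element matched Dnajb9, which also passed the correlation test with Hspa5. The matches are of letters and not measured binding sites, and their part in the correlations was not tested.

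Levels are given as normalized counts, obtained by inverting the deposited log2 values. Divided by annotated exon length, they were highest for Hspa5 at a mean of 1453 per kilobase over the 15 libraries. Atf5 followed at 1388 and Herpud1 at 889. Atf4 was at 371, Xbp1 at 344, Creld2 at 183, Dnajb9 at 143, Ddit3 at 54.3, Trib3 at 19.8 and Asns at 3.16 per kilobase. Among the ATF4-side genes, the regulators Atf5 and Atf4 were therefore abundant and the enzyme gene Asns nearly silent.

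**Figure D1:**
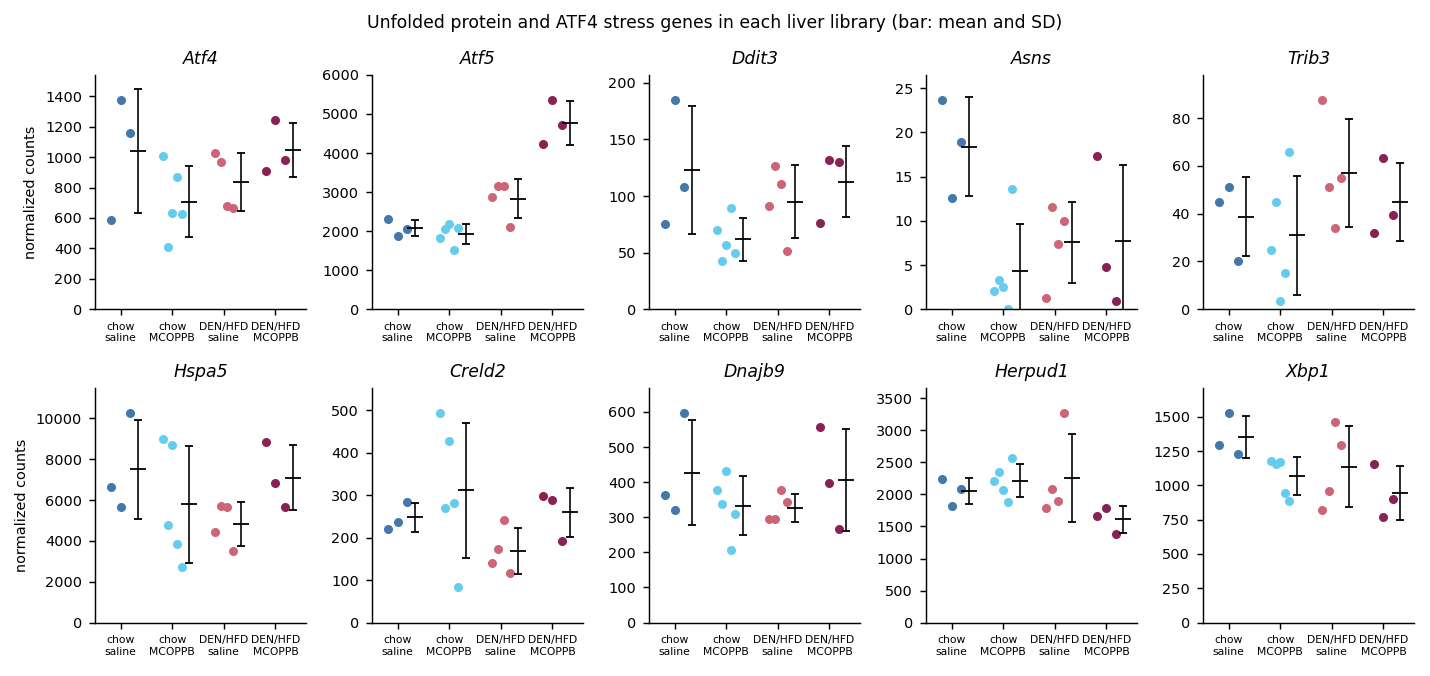
Normalized counts (y axis, from 0, a scale of its own for each gene) of the 10 members in every library, by group on the x axis. Points are animals, and the bar beside them is the group's mean and SD (cut off at 0 for Asns). Atf5 is the gene in which all 3 DEN/HFD MCOPPB animals, at 4219.7 to 5366, lie above every other library.

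Library quality touches these comparisons as follows. Depth was estimated at 9.32e+06 to 1.87e+07 assigned reads per library, and mitochondrial transcripts took 12.01% to 31.0% of normalized counts. The labels give each sample a pair of RNA integrity numbers (RIN). The first was 9.9 to 10 in chow MCOPPB, 9 to 9.7 in chow saline, 8.4 to 9.2 in DEN/HFD saline and 8.7 to 9.2 in DEN/HFD MCOPPB. The library numbers in the labels run from 1 to 8 for chow and from 10 to 17 for DEN/HFD, so library order and diet cannot be told apart. Under DEN/HFD they run from 10 to 12 with MCOPPB and from 13 to 17 with saline. Library order and treatment therefore cannot be told apart there either. On chow, MCOPPB has the numbers 1 to 4 and 8, and saline 5 to 7. All 10 hepatocyte markers were among the tested genes, with sums of 1.78e+06 to 4.08e+06 normalized counts per library that overlapped in all groups. Single markers did separate without a call. For DEN/HFD in MCOPPB mice 1 of 10 was lower without overlap (4.68% of all genes), with differences from -1.31 to 0.46. For MCOPPB on chow it was also 1 (2.14%), with differences from -0.75 to 0.37. Macrophage markers summed to 1383 to 1581 normalized counts in chow saline, below every library of chow MCOPPB (2228 to 3949) and of DEN/HFD saline (2258 to 4764). Of these 12 markers, 12 were positive for MCOPPB on chow (50.1% of all genes) and 11 for DEN/HFD in saline mice (51.4%), with none called. In each of these comparisons 8 of the 12 had an unadjusted p under 0.05, beside 9.06% and 11% of all genes. For the MCOPPB effect common to both diets, 12 were positive (50%) and 8 had an unadjusted p under 0.05 (6.5%), again with none called. The part of these cells in the differences of members was not tested. In whole liver, fewer cells of a type and less RNA per cell cannot be told apart.

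Atf5, a leucine zipper factor of the ATF4 family that is abundant in liver and known in mammals for a mitochondrial stress response, was the member that differed most between diets in MCOPPB mice. It stood at 2307, 1880.2 and 2053 normalized counts in chow saline, and at 1812, 2046, 2186, 1528 and 2074 in chow MCOPPB. The DEN/HFD saline libraries held 2874.5, 3164, 3162 and 2107, and the DEN/HFD MCOPPB libraries 4219.7, 5366 and 4725. The last group was above all others without overlap, against chow MCOPPB in a direction in which 4.63% of all genes did the same, the chow groups were mixed with each other, and DEN/HFD saline 4 lay within the chow range while the other 3 lay above it. Group means were 2079.9 ± 215 (SD, n = 3) and 1929 ± 262 (n = 5) on chow with saline and MCOPPB, and 2827 ± 499 (n = 4) and 4770.1 ± 574 (n = 3) under DEN/HFD. Atf5 (ENSMUSG00000038539.15) lies on chromosome 7 from 44812256 to 44816658, minus strand, GRCm38.

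In MCOPPB-treated mice, Atf5 was higher under DEN/HFD than on chow by 1.27 ± 0.18 (log2, SE, 95% interval 0.89 to 1.66, limma adjusted p = 0.00233). This is a 2.41-fold difference on the deposited scale. It had the rank 10 by p among the 11568 genes. Limma called 1 of the 9 tested members in this comparison, beside 0.571% of all genes (0.225% for calls of a higher level). With treatment as an additive term, the DEN/HFD difference of Atf5 was 0.86 ± 0.16 (limma adjusted p = 0.0177, rank 31). It was again the only called member, beside 1.32% of all genes (0.743% higher). The split of those calls depended on scaling, with 86 higher and 67 lower in this fit and 44 higher and 123 lower after rescaling without mitochondrial transcripts. That rescaling brought the non-mitochondrial counts of every library to a common total, in place of the deposited scaling.

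RNA quality moved with this result. Chow MCOPPB and DEN/HFD MCOPPB did not overlap in the first RIN value, and with it as a covariate the difference of Atf5 in MCOPPB mice was 1.09 ± 0.32 (limma adjusted p = 0.310), while no gene of the table was called. With the second RIN value, which overlaps between the groups, it was 1.24 ± 0.19 (adjusted p = 0.00858), a fit added after the values were seen. The common difference was not called without DEN/HFD MCOPPB 2 (0.76, limma adjusted p = 0.0634) or 3 (0.81, adjusted p = 0.0719), with the first RIN value (0.50 ± 0.24, adjusted p = 0.556) or after rescaling without mitochondrial transcripts (0.75 ± 0.20, adjusted p = 0.0631). From annotated start to end, Atf5 overlaps the opposite strand gene Nup62 by 571 bases. Nup62 held only 15.9 to 84.9 normalized counts and differed by -0.01 ± 0.24 (limma adjusted p = 0.993). Il4i1, at 1.06 to 9.08 normalized counts, overlaps Atf5 by 272 bases. These are overlaps of whole genes, and overlap of exons was not examined. Macrophage markers (12 of 12 tested) summed to 2228 to 3949 normalized counts in chow MCOPPB and to 2940 to 4702 in DEN/HFD MCOPPB. Of them, 10 of 12 were positive, and their differences lay from -1.36 to 0.75. Without overlap, 2 were higher and 1 was lower, beside 4.63% and 4.68% of all genes. Stellate cell markers (9 of 10 tested) summed to 1265 to 1969 and to 1954 to 2610.3, with 7 of 9 positive (median 0.54) and 4 higher without overlap (4.63% of all genes). Cholangiocyte markers (3 of 7 tested) summed to 335 to 428 and to 448 to 839 and did not overlap, and endothelial markers (9 of 9 tested) summed to 1591 to 2099.9 and to 1661 to 2339.8. Limma called none of these markers in that comparison, while 4 of 12, 4 of 9, 1 of 3 and 2 of 9 had an unadjusted p under 0.05, beside 12.3% of all genes. In the common DEN/HFD effect it called the macrophage markers Cd68 (0.80 ± 0.17, adjusted p = 0.0296) and C1qc (0.67 ± 0.16, adjusted p = 0.0441) and the collagen gene Col1a2 (1.06 ± 0.24, adjusted p = 0.0370), all higher, beside 1.32% of all genes. There, 2 of 12 macrophage markers (lowest -0.43) and 3 of 9 stellate cell markers (lowest -0.35) were negative. The part of these cell types in the result was not tested.

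In saline-treated mice the DEN/HFD difference of Atf5 was 0.41 ± 0.19 and did not pass (limma adjusted p = 0.435). Without DEN/HFD saline 4 it was 0.54 ± 0.19 (adjusted p = 0.225). Between the DEN/HFD groups, Atf5 was 0.75 ± 0.19 higher with MCOPPB, with 3 of 3 treated libraries above all 4 controls. This did not pass over all genes (unadjusted p = 0.00108, rank 30, limma adjusted p = 0.416). Of all genes, 3.22% had DEN/HFD groups apart in this direction. On chow, MCOPPB and saline differed by -0.11 ± 0.18 in Atf5 (95% interval -0.49 to 0.27). The difference between both MCOPPB effects was 0.86 ± 0.26 (unadjusted p = 0.00466, limma adjusted p = 0.577) and did not pass. These comparisons share groups, so their values are not independent of each other.

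**Figure D2:**
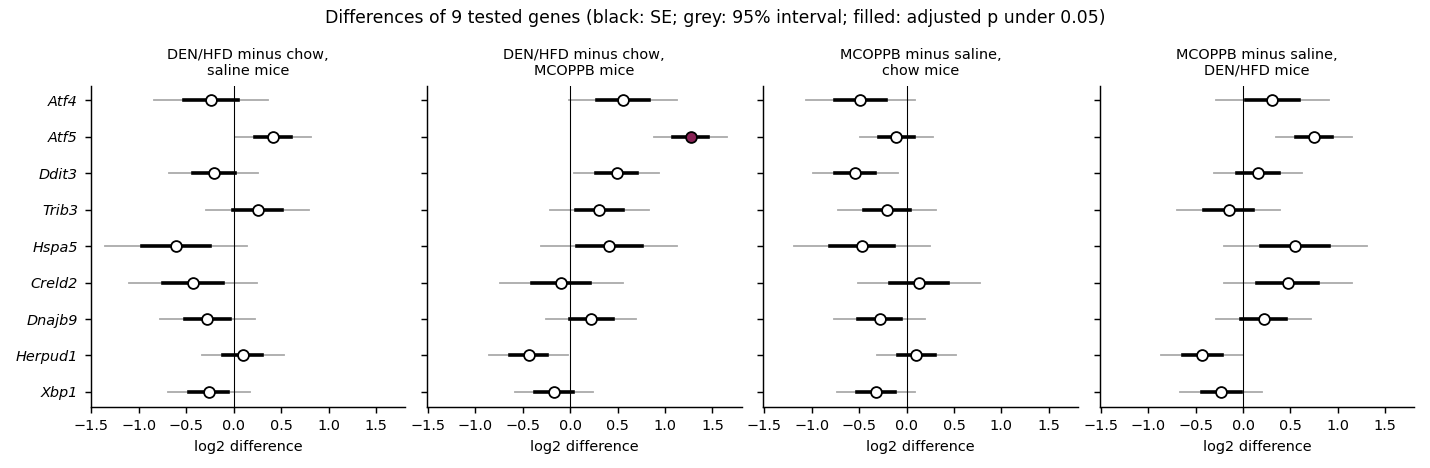
Log2 differences (x axis) of the 9 tested members in the 4 comparisons of groups, with SE in black and the 95% interval in grey. The filled point marks the only call, Atf5 in MCOPPB mice at 1.27 ± 0.18, and the intervals of most other members include 0.

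Atf4, the central transcription factor of the response, was not called in any comparison. It held 589, 1377 and 1155 normalized counts in chow saline and 1004, 406, 629, 868 and 623 in chow MCOPPB. In DEN/HFD saline it held 1029, 965, 675 and 665, and in DEN/HFD MCOPPB 912, 1245 and 977. All 4 groups overlapped, and chow MCOPPB 2 was the lowest library. The DEN/HFD difference was 0.56 ± 0.27 in MCOPPB mice (limma adjusted p = 0.421) and -0.24 ± 0.28 in saline mice (adjusted p = 0.816). Atf4 (ENSMUSG00000042406.8) lies on chromosome 15 from 80255184 to 80257541, plus strand.

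Ddit3 encodes CHOP, a factor downstream of ATF4 that is known for promoting cell death under lasting ER stress. Its levels were 75.7, 185 and 108 normalized counts in chow saline and 70.3, 42.6, 56.5, 89.6 and 49.6 in chow MCOPPB. DEN/HFD saline held 91.5, 127, 111 and 51.4, and DEN/HFD MCOPPB 76.6, 132 and 130.045. The highest and the lowest library, chow saline 2 and chow MCOPPB 2, were also the extremes of Atf4. The MCOPPB difference on chow was -0.54 ± 0.21 (unadjusted p = 0.0204, limma adjusted p = 0.448), with overlap between the groups, and under DEN/HFD it was 0.16 ± 0.22 (adjusted p = 1.00). The DEN/HFD difference in MCOPPB mice was 0.49 ± 0.21 (adjusted p = 0.338). Ddit3 (ENSMUSG00000025408.15, chromosome 10, 127290774 to 127296288, plus strand) overlaps the opposite strand gene Mars by 68 bases, counted over whole genes. A second identifier of the same symbol held at most 5.68 normalized counts.

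Trib3, a pseudokinase that feeds back on ATF4 and CHOP, was low and scattered. It ranged from 20.1 to 51.0 normalized counts in chow saline, from 3.51 to 65.99 in chow MCOPPB, from 33.8 to 87.7 in DEN/HFD saline and from 31.8 to 63.1 in DEN/HFD MCOPPB. The groups overlapped throughout, and its 4 differences between groups lay from -0.21 ± 0.25 to 0.31 ± 0.25. Trib3 (ENSMUSG00000032715.9) lies on chromosome 2 from 152337422 to 152344032, minus strand.

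Asns, the asparagine synthetase and a classical ATF4 target, lay near the lowest value of the table. It held 23.7, 12.5 and 18.9 normalized counts in chow saline, and 2.11, 3.25, 2.48, 0 and 13.5 in chow MCOPPB. DEN/HFD saline held 1.25, 11.6, 7.43 and 9.95, and DEN/HFD MCOPPB 17.4, 4.75 and 0.888. On chow, 4 of 5 MCOPPB libraries lay below all saline libraries, while chow MCOPPB 5 lay above the lowest of them. In a fit with no filter on low values, over 23148 genes, the MCOPPB difference on chow was -0.54 ± 0.19 on the compressed log2 scale (unadjusted p = 0.0117, limma adjusted p = 0.489) and did not pass. Asns (ENSMUSG00000029752.12) lies on chromosome 6 from 7675169 to 7693254, minus strand.

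On the ER side, Hspa5, the gene of the main ER chaperone BiP, varied widely between animals of the same group. It stood at 6619, 5647 and 10266 normalized counts in chow saline and at 8974, 4758, 8681, 3863 and 2702 in chow MCOPPB. DEN/HFD saline held 4442, 5713, 5668 and 3512, and DEN/HFD MCOPPB 8823, 6825 and 5667. The chow MCOPPB animals alone spanned almost the whole range. The SD within groups was 0.53 (log2), the largest of the 9 members, beside a median of 0.30 over all tested genes and 0.21 for Atf5, the smallest of the 9. The differences of Hspa5 were -0.47 ± 0.34 for MCOPPB on chow (limma adjusted p = 0.734), -0.61 ± 0.36 for DEN/HFD in saline mice (limma adjusted p = 0.565), 0.41 ± 0.34 in MCOPPB mice (adjusted p = 0.664) and 0.55 ± 0.36 for MCOPPB under DEN/HFD (adjusted p = 1.00). Both MCOPPB effects differed by 1.02 ± 0.49, which did not pass (unadjusted p = 0.0540, adjusted p = 0.835). Hspa5 (ENSMUSG00000026864.13) lies on chromosome 2 from 34771970 to 34777547, plus strand.

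Creld2, an ER-resident protein with disulfide isomerase activity that is induced by ER stress, had the second largest SD within groups (0.48). It held 221, 237 and 285 normalized counts in chow saline and 494, 270.0, 427, 283 and 83.8 in chow MCOPPB. DEN/HFD saline held 139, 173, 242 and 118, and DEN/HFD MCOPPB 298, 289 and 192. Chow MCOPPB 1 and chow MCOPPB 5 were its highest and lowest libraries, so both extremes fell into 1 group. The DEN/HFD difference was -0.43 ± 0.32 in saline mice (limma adjusted p = 0.670) and -0.09 ± 0.31 in MCOPPB mice (adjusted p = 0.929). Creld2 (ENSMUSG00000023272.4) lies on chromosome 15 from 88819646 to 88826683, plus strand.

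Dnajb9, the BiP cochaperone ERdj4 and a target of spliced XBP1, ranged from 319.7 to 597 normalized counts in chow saline and from 207 to 433 in chow MCOPPB. It ranged from 294 to 376 in DEN/HFD saline and from 266 to 557 in DEN/HFD MCOPPB. All groups overlapped, and its 4 differences between groups lay from -0.28 ± 0.23 to 0.22 ± 0.24. Dnajb9 (ENSMUSG00000014905.4) lies on chromosome 12 from 44205559 to 44210326, minus strand.

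Herpud1, a membrane protein of ER-associated degradation, was lowest in DEN/HFD mice with MCOPPB. Its levels were 2237, 1827 and 2093 normalized counts in chow saline and 2210.4, 2347, 2070.2, 1884 and 2577 in chow MCOPPB. DEN/HFD saline held 1782, 2092, 1891 and 3273, and DEN/HFD MCOPPB 1669, 1791 and 1379.6. The 3 DEN/HFD MCOPPB libraries lay below all 5 chow MCOPPB libraries, a difference of -0.44 ± 0.20 that did not pass (unadjusted p = 0.0389, limma adjusted p = 0.363). Groups apart in this direction were found for 4.68% of all genes. Against DEN/HFD saline the difference was -0.43 ± 0.21 (adjusted p = 1.00), and -0.25 ± 0.18 without DEN/HFD saline 4, the highest library of all. Herpud1 (ENSMUSG00000031770.16) lies on chromosome 8 from 94386438 to 94395377, plus strand.

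Xbp1, the gene of the transcription factor that IRE1 activates by splicing, varied least in range, from 769 to 1528 normalized counts. It held 1298, 1528 and 1231 in chow saline, and 1177, 1153, 1170.0, 942 and 888 in chow MCOPPB. DEN/HFD saline held 819, 962, 1461 and 1295, and DEN/HFD MCOPPB 1155, 769 and 904. All 5 chow MCOPPB libraries lay below the 3 chow saline libraries, a difference of -0.32 ± 0.20 that did not pass (unadjusted p = 0.118, limma adjusted p = 0.674). Of all genes, 2.14% had the chow groups apart in this direction. Xbp1 (ENSMUSG00000020484.19) lies on chromosome 11 from 5520659 to 5525893, plus strand.

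Over the 9 tested members, limma called none for MCOPPB on chow, beside 0.32% of all genes, and 1 had an unadjusted p under 0.05 (9.06% of all genes). Their median difference there was -0.28, with 2 positive, beside a median of 0.001 and 50.1% positive for all genes. Limma called no member for MCOPPB under DEN/HFD, beside 0.0259% of all genes, and 1 had an unadjusted p under 0.05 (4.74%). There the median was 0.22 with 6 positive, beside -0.004 and 49.3%. For DEN/HFD in saline mice it also called no member, beside 0.0519%, and 1 had an unadjusted p under 0.05 (11%). The median there was -0.24 with 3 positive, beside 0.01 and 51.4%. In MCOPPB mice the median was 0.31 with 6 positive, beside -0.005 and 49.4%, and 3 members had an unadjusted p under 0.05 (12.3%). In the common DEN/HFD effect 4 were positive (49.6%) and 1 had an unadjusted p under 0.05 (16.7%). The difference between both MCOPPB effects was positive for 8 of 9 members with a median of 0.50, against 49.4% of all genes. None was called by limma, beside 0.0692%, and 2 had an unadjusted p under 0.05 (5.9%). For the MCOPPB effect common to both diets limma called no member, beside 0.372%, 3 were positive (50% of all genes) and 0 had an unadjusted p under 0.05 (6.5%).

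The other genes of these pathways were taken from 8 lists of sensors, regulators, ATF4 targets, tRNA synthetases, ER chaperones, ER-associated degradation and translocation, mitochondrial chaperones and heat shock proteins. They hold 134 genes, of which 124 were tested, none of them a member. In MCOPPB mice, DEN/HFD raised 1 of the 124, 62 had a positive difference and 14 an unadjusted p under 0.05, beside 0.571%, 49.4% and 12.3% of all genes. The raised gene was Fgf21, an ATF4 target that encodes a liver hormone of the fasting and stress response. Its levels were 5.26, 8.10, 7.90, 2.54 and 17.8 normalized counts in chow MCOPPB and 47.7, 64.6 and 84.3 in DEN/HFD MCOPPB. The groups lay apart, by 1.05 ± 0.21 (log2, limma adjusted p = 0.0258). The call rested on small margins: it was lost with either RIN value as a covariate (adjusted p = 0.403 and 0.0641), with no filter (0.0595), and when any 1 of the 8 libraries compared except chow MCOPPB 4 or 5 was left out (0.0511 to 0.195). Fgf21 held 9.94 to 40.9 normalized counts in chow saline and 13.8 to 54.3 in DEN/HFD saline.

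The DEN/HFD difference common to both treatments was called for a further 2 of the 124 genes. Cebpb, a transcription factor that pairs with ATF4 and also serves the acute phase response, held 137 to 394 normalized counts in chow saline, 149 to 795 in chow MCOPPB, 575 to 1071 in DEN/HFD saline and 447 to 835 in DEN/HFD MCOPPB. Its common difference was 1.22 ± 0.26 (limma adjusted p = 0.0266), and leaving out single libraries gave adjusted p values of 0.0058 to 0.0811. It was not called without chow saline 3, DEN/HFD saline 1 or 2, or DEN/HFD MCOPPB 2 or 3, with no filter (1.22 ± 0.26, adjusted p = 0.0629) or with the first RIN value, where the difference was 1.72 ± 0.39 (adjusted p = 0.275). Hspb1, the small heat shock protein HSP25 of the mouse, held 56.3 to 141 in chow saline, 28.8 to 147 in chow MCOPPB, 63.0 to 679 in DEN/HFD saline and 202 to 568 in DEN/HFD MCOPPB. Its common difference was 1.37 ± 0.31 (adjusted p = 0.0358), with a range of 0.00121 to 0.126 over the same fits. It kept its call in 5 of the 15 fits that leave out a library, those without chow saline 3, chow MCOPPB 1 or 4, DEN/HFD saline 4 or DEN/HFD MCOPPB 1. It was also not called with the first or second RIN value (adjusted p = 0.494 and 0.0658), with no filter (0.0789) or after the mitochondrial rescaling (0.0504). In no other comparison did limma call any of the 124 genes. There, 7 had an unadjusted p under 0.05 for MCOPPB on chow (9.06% of all genes), 3 for MCOPPB under DEN/HFD (4.74%), 12 for DEN/HFD in saline mice (11%), 5 for the difference between both MCOPPB effects (5.9%) and 2 for the common MCOPPB effect (6.5%). These shares of the 124 do not exceed those of all genes.

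ER chaperones other than Hspa5 had mostly negative DEN/HFD differences that did not pass. Of 21 tested, 17 were negative in saline mice (median -0.18), 14 in MCOPPB mice (median -0.13) and 16 in the common effect (median -0.14), beside about 50% of all genes. Limma called none of them, and 4, 1 and 2 had an unadjusted p under 0.05, beside 11%, 12.3% and 16.7% of all genes. Hsp90b1, the gene of the ER chaperone GRP94, had a difference of -0.54 ± 0.20 in saline mice (limma adjusted p = 0.310), and the oxidase gene Ero1lb -0.69 ± 0.27 (adjusted p = 0.333). Both were among 4 of the 21 whose DEN/HFD saline libraries all lay below chow saline, beside 4.36% of all genes. Of the 17 tested ATF4 targets, 10 were positive in MCOPPB mice (median 0.07), and of the 13 tRNA synthetases 8 (median 0.17), with 4 of the latter at an unadjusted p under 0.05, beside 12.3% of all genes. In that comparison limma called no listed ATF4 target other than Fgf21.

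**Figure D3:**
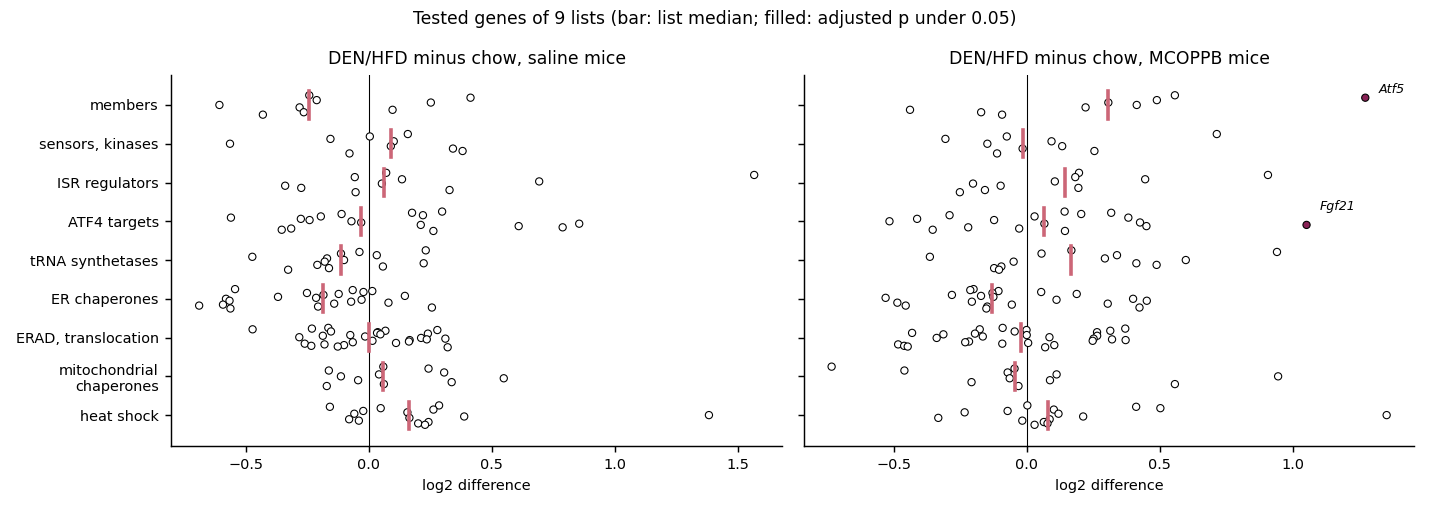
Log2 differences between DEN/HFD and chow (x axis) of all tested genes in the members and the 8 lists (rows), in saline mice on the left and MCOPPB mice on the right. Each point is a gene, bars are list medians and filled points are calls. The only calls are Atf5 at 1.27 and Fgf21 at 1.05 in MCOPPB mice, some uncalled points reach as far (1.35 for Hspb1 in the same panel), and the medians of the lists other than the members lie between -0.18 and 0.17.

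Between animals, a few pairs of members moved together, and most pairs did not. For all 36 pairs, Pearson and Spearman correlations were computed over the 15 libraries with 100000 permutations each, and p values were adjusted over the 36 pairs. Atf4 and Ddit3 rose and fell together, with r = 0.81 (permutation p = 0.00032, adjusted 0.00738) and rho = 0.79 (permutation p = 0.00075, adjusted 0.0232). Without the 2 libraries farthest from the median of Atf4 r was 0.78, and from deviations within groups it was 0.73. The gene most like Ddit3 was Daxx (r = 0.90), and Atf4 was most like Pabpn1 (0.88) and the methionyl-tRNA synthetase gene Mars (0.87).

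Hspa5 and Creld2, the pair of members with an ERSE match, had r = 0.79 (permutation p = 0.00041, adjusted 0.00738) and rho = 0.76 (permutation p = 0.00155, adjusted 0.0232), with 0.74 without 2 libraries and 0.88 within groups. Hspa5 and Dnajb9 had r = 0.72 (permutation p = 0.00231, adjusted 0.0249) and rho = 0.75 (adjusted 0.0232), with 0.71 without 2 libraries and 0.67 within groups. Trib3 went against Creld2, with r = -0.72 (permutation p = 0.00277, adjusted 0.0249) and rho = -0.74 (adjusted 0.0232), and -0.69 and -0.67 in the same checks. Ddit3 and Herpud1 had r = -0.65 (permutation p = 0.00738, adjusted 0.0531) and rho = -0.70 (adjusted 0.0324), so that only the rank correlation passed. No other pair passed by either measure. These relations hold within a single set of 15 libraries that share 1 normalization.

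**Figure D4:**
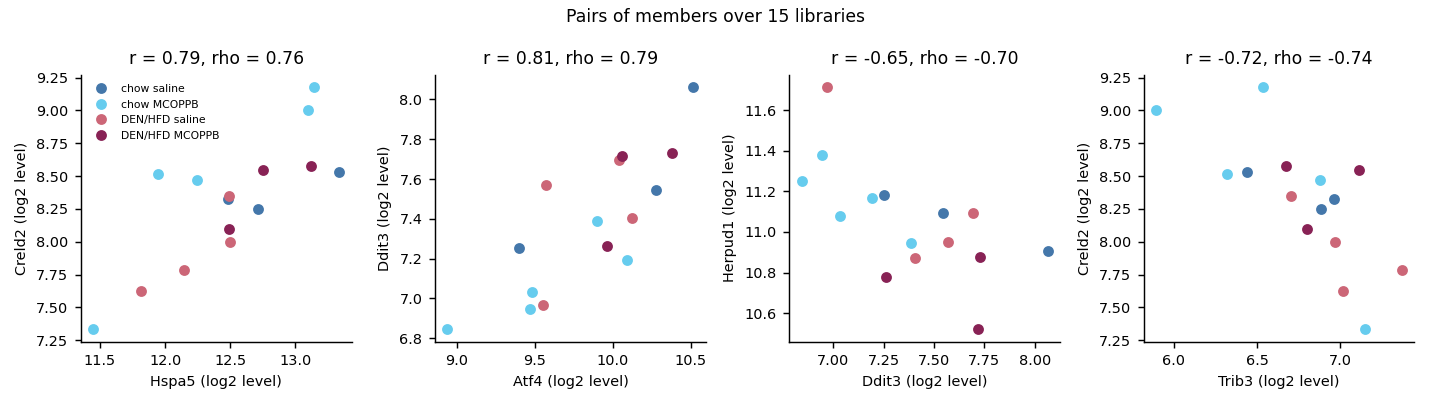
Levels (log2, both axes) of 4 pairs of members, where each point is a library coloured by group. Hspa5 with Creld2 and Atf4 with Ddit3 rise together (r = 0.79 and 0.81), and Ddit3 with Herpud1 and Trib3 with Creld2 run in opposite directions (r = -0.65 and -0.72), with the groups mixed along each axis.

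The pattern of Hspa5 was shared by other ER chaperones. Its nearest genes among all 11568 were Manf, a secreted ER stress protein, at r = 0.97 and Hyou1, the chaperone ORP150, at 0.92. Of the 21 listed ER chaperones, 11 had r over 0.5 with Hspa5, beside 3.41% of all genes, and 9 had it with Creld2, beside 2.60%. In chow MCOPPB 1 and 3, Manf held 1368 and 1377 normalized counts and Hyou1 2481 and 1529.7. In chow MCOPPB 5, where Hspa5 and Creld2 were also lowest, they held 268 and 414. Animals of the same group thus differed severalfold in 4 genes of ER protein folding at once.

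Atf5 did not belong to this set. None of the 21 ER chaperones had r over 0.5 with it, beside 8.91% of all genes, and its r with Atf4 was 0.28. Its nearest genes were Fam131c (0.91) and the glutamine synthetase gene Glul (0.91), and its r with Fgf21 was 0.89 (0.68 within groups). Herpud1 was nearest to Tent4b (0.85), Xbp1 to Rtf1 (0.86), Dnajb9 to Fndc3a (0.87), Creld2 to Gm47102 (0.87) and the ER chaperone gene Calr (0.86), and Trib3 to Pi4k2b (0.84). These likenesses describe the 15 libraries and were picked as the highest among all tested genes.

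**Figure D5:**
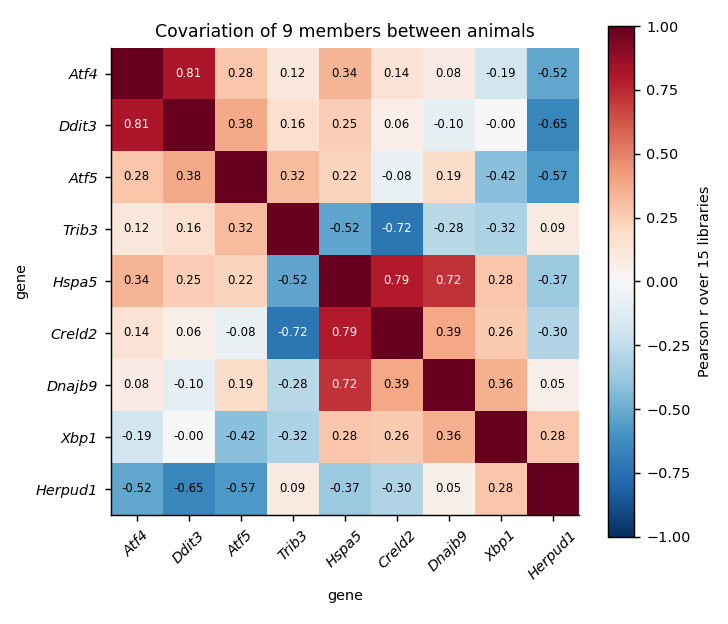
Pearson r over 15 libraries between the 9 tested members (both axes; red positive, blue negative). The pairs of Hspa5 with Creld2 (0.79) and with Dnajb9 (0.72) and of Atf4 with Ddit3 (0.81) stand out. Creld2 and Dnajb9 are at 0.39, and Atf5 has no r over 0.38 with another member.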

How the data were processed

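The authors deposited a table of variance-stabilised expression on the log2 scale. Per the submitters' processing notes, Trimmomatic, STAR 2.7.0e, HTSeq, DESeq2 and GRCm38 (mm10) were used, with roles and settings not given in the sources used here. Per the labels' protocols, the libraries were directional, but the strand setting of the counting is not given. The lowest value, 5.49, stands for 0 reads. The transformation was inverted to normalized counts. Only 16.1% to 49.0% of a library's values below 20 reads came out whole (within 0.01 read). Reads were therefore not recovered, no count test was run and depths are estimates. Differences of low genes are compressed on the log2 scale.

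A gene was kept where 3 libraries or more exceeded that lowest value by 1 (log2), which is 22.5 normalized counts. Limma 3.58.1 in R 4.3.3 fitted 4 group means over 15 libraries (eBayes with trend, 11 residual degrees of freedom), or additive terms for the common effects. P values are two-sided and adjusted by the Benjamini-Hochberg method over 11568 genes, and calls were made under 0.05. "Adjusted p" in the text means limma's unless permutations are named. The fit was tested on simulated data. Intervals are 95% intervals. The titles name a separate mouse for each library. Symbols and positions came from GENCODE M21 (54107 IDs, 53544 with the version), and promoters from RefSeq. Exon lengths are unions of annotated exons.

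Members and lists were chosen with earlier results of these data known. Named were all members, list genes that were called, otherwise at most 2 of a list with the smallest p, and up to 2 genes most correlated with a member, of which 1 is not reported here. Manf and Hyou1 levels were shown after their values were seen. Alternatives were other filters, normalizations, scales, weights, covariates and leaving out each library.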

Additional observations from a re-analysis of the deposited data

Results flagged for a closer look

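In groups of 4 or 5 libraries, the levels of the 10 members and of Fgf21, Cebpb and Hspb1 were searched for a single library far from the others, and 2 of 26 groups held one. Chance alone marks about 1 group in 20. Asns stood at 13.5 normalized counts in chow MCOPPB 5, beside 0 to 3.25 in the other 4 libraries of that group. Cebpb stood at 795 normalized counts in chow MCOPPB 5, beside 149 to 318 in the other 4.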

How the results depend on the processing

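Across 26 alternatives, 1599 of 1604 recomputed differences of members kept their call, 5 calls were lost, none was gained, and no called difference changed sign. Atf5, in MCOPPB mice and in the common DEN/HFD effect, held the only calls among the 63 member differences of the first fit. All 5 lost calls were therefore of Atf5, and most of the 1599 were uncalled differences that stayed uncalled. With the first RIN value as a covariate, 0 members were called for DEN/HFD in MCOPPB mice (Atf5 1.09 ± 0.32) and 0 in the common DEN/HFD effect (Atf5 0.50 ± 0.24, adjusted p = 0.556). Rescaling without mitochondrial transcripts also left 0 in the common effect (0.75 ± 0.20, adjusted p = 0.0631), and leaving out single libraries gave 0 to 1. For Atf5 these ranged from 1.19 to 1.36 in MCOPPB mice and from 0.76 to 0.95 in the common effect. The cause was not tested. Uncalled differences changed sign in 50 fits, 5 of them under the mitochondrial rescaling. Because that rescaling replaced the deposited scaling by library totals, its shifts cannot be assigned to mitochondrial transcripts alone. After the rescaling, the median of all genes was 0.18 for MCOPPB under DEN/HFD (-0.004 before) and -0.14 for DEN/HFD in saline mice (0.01 before). The median was 0.13 for the interaction and 0.11 for the common MCOPPB effect. The rescaling also turned the split of calls from 86 higher and 67 lower to 44 and 123 in the common DEN/HFD effect, and from 16 and 27 to 35 and 26 in the common MCOPPB effect.

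Calls over all genes moved more than those of members. For DEN/HFD in MCOPPB mice, 66 became 0 with the first RIN value, 34 with the second, 16 with the replicate block, 135 with only the groups compared, 285 with array weights and 18 to 157 without single libraries. The common DEN/HFD effect went from 153 to 0 with the first RIN value, 81 with the second, 56 with no filter, 69 with the block, 392 with array weights and 6 to 460 without single libraries. DEN/HFD in saline mice (6) ranged from 1 to 52 and MCOPPB under DEN/HFD (3) from 0 to 8. MCOPPB on chow (37) fell to 13 without chow saline 3, 15 with the first RIN value and 23 with the block. The interaction (8) fell to as few as 2, and the common MCOPPB effect (43) to 3 with the first RIN value, 8 with the second and 25 with no filter.

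Replicate numbers did not pair the libraries: same-numbered libraries of different groups had a mean correlation of -0.0273 in 19 pairs (0.00838 in 64 others), and 1 of 15 correlated best with its own number. With the number as a block, Atf5 was at 1.19 ± 0.19 in MCOPPB mice (adjusted p = 0.0231) and 0.86 ± 0.15 in the common effect (0.0239), so the block changed no call of a member. It ended the calls of Fgf21 (1.03 ± 0.21, adjusted p = 0.104) and Hspb1 (1.28 ± 0.28, adjusted p = 0.0601) but not that of Cebpb. With 3 to 5 animals per group, uncalled differences of members are not shown to be absent.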

Other observations

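Further genes of these pathways are given as values that did not pass over all genes. Eif2ak3, which encodes the ER stress kinase PERK, had a DEN/HFD difference of 0.71 ± 0.24 in MCOPPB mice (limma adjusted p = 0.221) with the groups apart, and Ern1, which encodes IRE1, one of -0.56 ± 0.17 in saline mice (adjusted p = 0.226) with the groups apart. Of the 9 listed sensors and kinases, 4 were positive in MCOPPB mice and 6 in saline mice. Among mitochondrial chaperones and proteases, Clpx had a difference of 0.94 ± 0.28 (adjusted p = 0.148) and Htra2 one of 0.56 ± 0.17 (adjusted p = 0.158) for DEN/HFD in MCOPPB mice, each with the groups apart. Most of that list went the other way. Of its 11 genes, 4 were positive and 7 negative (median -0.05, lowest -0.73). Higher without overlap were 2 of the 11, beside 4.63% of all genes. Clpx was also 0.95 ± 0.29 higher with MCOPPB under DEN/HFD (adjusted p = 0.648), where 3 of the 11 were positive and 8 negative.

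With MCOPPB on chow, the transaminase gene Gpt2 had a difference of 0.77 ± 0.27 (limma adjusted p = 0.346) and the lipoprotein receptor gene Vldlr, an ATF4 target, 0.94 ± 0.32 (adjusted p = 0.348), both with the groups apart. The 17 tested ATF4 targets were split there, with 9 positive and 8 negative (median 0.03, lowest -0.73), beside 50.1% positive of all genes. Without overlap, 2 were higher and 1 was lower (2.14% of all genes were lower). The MCOPPB effects on Gpt2 differed between diets by -1.01 ± 0.38 (adjusted p = 0.759). Mars, the gene that overlaps Ddit3 on the opposite strand, had a difference of -0.64 ± 0.25 (adjusted p = 0.453) for MCOPPB on chow, in the direction of Ddit3.

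Sums of 2 further marker lists overlapped in all groups. Plasma and B cell markers (5 of 13 tested, Tnfrsf17 at 0 throughout) summed to 284 to 1024 normalized counts per library, and exocrine pancreas markers (1 of 10 tested, Prss1 and Cpb1 at 0 throughout) to 72.3 to 321. Single markers among them did separate or shift for MCOPPB on chow without passing over all genes. Ighm had a difference of -0.59 ± 0.24 with the groups apart (limma adjusted p = 0.474), and Cela1 one of -0.57 ± 0.25 (adjusted p = 0.505). Of the 5 tested plasma and B cell markers, 2 were positive (highest 0.22) and 3 negative. Ighm was the only 1 of these 5 lower without overlap, beside 2.14% of all genes.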
